A study of Mus musculus with 8 samples.

Results

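The CDK inhibitor genes Cdkn1a, Cdkn1b, Cdkn1c, Cdkn2a, Cdkn2b, Cdkn2c and Cdkn2d were followed in TTE3 cells held at 39 °C. All probe sets whose single platform gene symbol is one of these 7 genes were taken, which gave 9 of 22626 probe sets: 2 each for Cdkn1a and Cdkn1b and 1 for each of the other 5. TTE3 cells are immortalised Sertoli cells, the supporting cells of the seminiferous tubule, made from the testis of mice transgenic for a heat-labile (temperature-sensitive) SV40 large T-antigen. Every sample carries that transgene, and 39 °C is its nonpermissive temperature. The 4 groups are cells kept 0, 6, 12 or 24 h at this temperature, and each holds 2 samples, so that 8 Affymetrix Mouse Expression 430A arrays of total RNA were made. This is a single line, the promoter of the transgene and the temperature before the shift are not stated in the labels, and samples after 0 h differ from 0 h in both temperature and time. The labels leave unsaid whether both samples of a group came from different dishes; a p-value here therefore reflects the spread of the arrays alone, and that spread may be technical.

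CDK inhibitors are small proteins that hold back the cyclin-dependent kinases of the cell cycle. The Cip/Kip family, p21 (Cdkn1a), p27 (Cdkn1b) and p57 (Cdkn1c), binds assembled cyclin-CDK complexes, whereas the INK4 family, p16 (Cdkn2a), p15 (Cdkn2b), p18 (Cdkn2c) and p19 (Cdkn2d), binds CDK4 and CDK6 and keeps D-type cyclins off them. With these kinases held back, RB family proteins stay bound to E2F factors and S-phase genes stay repressed. Large T-antigen binds both p53 and RB, p53 is a transcriptional activator of Cdkn1a, and p27 is known to limit the proliferation of Sertoli cells in the testis.

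The 250 bases before the RefSeq transcription starts (GRCm38.p6) are given for the genes that rose above 0 h, since p53 and general promoter factors are known to act there. Capitals mark a 20-base p53 element in the first window and GC boxes (GGGCGG on either strand) in the others.
Cdkn1a, distal start, chr17:29090729-29090978, + strand: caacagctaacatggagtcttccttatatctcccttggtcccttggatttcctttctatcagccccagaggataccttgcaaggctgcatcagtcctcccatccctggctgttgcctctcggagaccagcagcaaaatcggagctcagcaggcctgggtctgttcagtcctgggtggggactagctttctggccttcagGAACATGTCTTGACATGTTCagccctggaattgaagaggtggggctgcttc
Cdkn1a, proximal start, chr17:29093519-29093768, + strand: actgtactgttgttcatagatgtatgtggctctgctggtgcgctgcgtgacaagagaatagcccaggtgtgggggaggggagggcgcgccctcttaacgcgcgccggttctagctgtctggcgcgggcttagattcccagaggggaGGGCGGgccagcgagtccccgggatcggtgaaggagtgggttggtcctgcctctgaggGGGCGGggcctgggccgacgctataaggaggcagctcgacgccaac
Cdkn1b, chr6:134920151-134920400, + strand: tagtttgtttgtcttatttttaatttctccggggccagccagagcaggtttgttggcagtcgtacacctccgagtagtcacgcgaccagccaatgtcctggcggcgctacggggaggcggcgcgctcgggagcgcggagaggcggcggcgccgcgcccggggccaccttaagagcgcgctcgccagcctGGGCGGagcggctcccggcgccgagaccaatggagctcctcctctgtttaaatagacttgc
Cdkn2d, chr9:21291210-21291459, - strand: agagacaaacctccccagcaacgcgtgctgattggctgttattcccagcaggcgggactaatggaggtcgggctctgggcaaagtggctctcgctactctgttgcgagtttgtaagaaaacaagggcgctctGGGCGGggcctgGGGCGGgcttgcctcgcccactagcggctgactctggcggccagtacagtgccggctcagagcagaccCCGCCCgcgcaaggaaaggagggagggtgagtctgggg

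The distal Cdkn1a window held the 20-base p53 element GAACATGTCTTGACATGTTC at chr17:29090928-29090947, with its first base at position -51 from the distal start and -2841 from the proximal one. This is the well-known upstream p53 element of Cdkn1a. It was found as a pair of adjacent p53 half-sites with no spacer and at most 1 mismatch to the consensus, and it had 1 mismatch. Such a pair occurred in 0.0761% of 32851 windows of the same length, and in 1 of the 9 windows of the 6 members found in the RefSeq promoter table (all but Cdkn1c). A p53 half-site alone, which occurred in 7.13% of all windows, was also present before Cdkn2d, where it overlapped a GC box, and once more in the distal Cdkn1a window. GC boxes were found before Cdkn1b, Cdkn2d, the proximal Cdkn1a start and the distal starts of Cdkn2a and Cdkn2c, against 32.7% of all windows. The letters GAANNTTC of the heat shock element, present in 6.69% of all windows, were in none of the 9. CCAAT was found before Cdkn1b and Cdkn2d (33.8% of all windows), and TATAA in both Cdkn1a windows (22.8%), searched on either strand. These are matches of letters in a window, not measured binding.

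**Figure D1:**
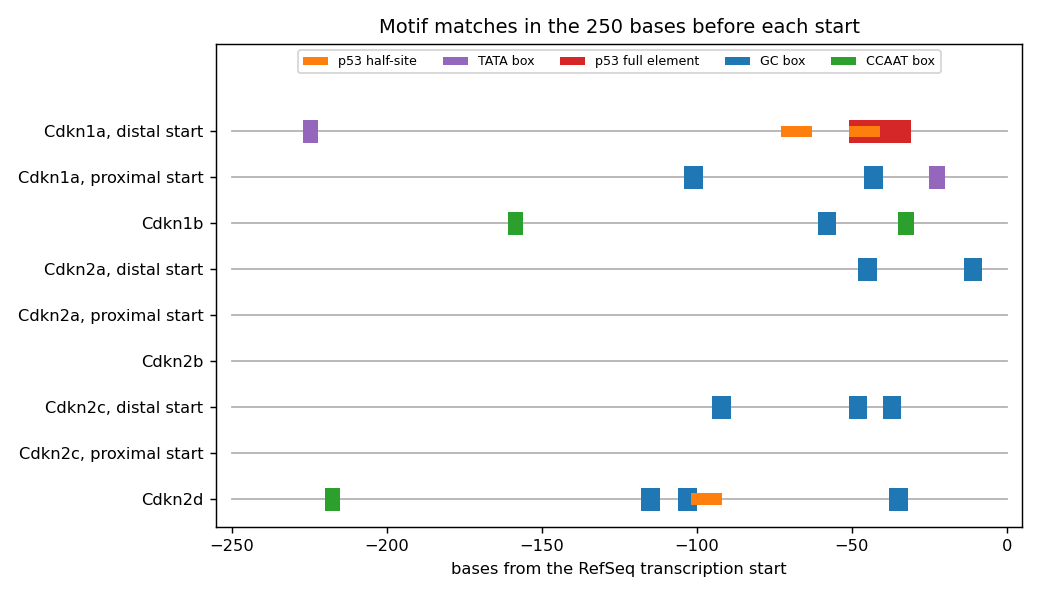
Positions of motif matches in the 250 bases before each RefSeq start, with the distance from the start in bases on the x axis and 1 line per start. The p53 full element spans positions -51 to -32 of the distal Cdkn1a start, and no other line carries one.

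Cdkn1a had the largest log2 differences from 0 h among the 8 tested probe sets (the untested, dim Cdkn1c had higher ratios of mean intensity at 6 and 12 h, 8.59 and 10.9 against 7.36 and 8.53 for 1424638_at). Both Cdkn1a probe sets were high on every array after 0 h and low on both arrays at 0 h. Probe set 1424638_at read 912.1 and 808.1 intensity units on the 2 arrays at 0 h, 6204 and 6461 at 6 h, 7347 and 7324 at 12 h, and 8582 and 8342 at 24 h. Each later time lay clear of the earlier ones, except that the distance between 6 h, 12 h and 24 h was small beside the first rise. On the scale of log2(intensity + 21.9), where 21.9 is an offset that damps noise in dim signals, its rise over 0 h was 2.85 ± 0.09 after 6 h, 3.06 ± 0.09 after 12 h and 3.27 ± 0.09 after 24 h (± SE of the fit, n = 2 per time), or 7.22-fold, 8.36-fold and 9.63-fold. The adjusted p-values (limma, Benjamini-Hochberg over 13576 tested probe sets) were 1.51e-08, 1.98e-08 and 3.21e-09. In bulk RNA, a change in the number of cells that express a gene and a change in RNA per cell cannot be told apart.

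The second Cdkn1a probe set, 1421679_a_at, read 209.9 and 183.4 units at 0 h, 960 and 911.9 at 6 h, 1582 and 1432 at 12 h, and 1826 and 1300 at 24 h. It lay above 0 h by 2.13 ± 0.15 at 6 h, 2.81 ± 0.15 at 12 h and 2.84 ± 0.15 at 24 h on the log2 scale (limma adjusted p = 8.36e-06, 7.77e-07 and 6.40e-07). The 24 h arrays were further apart than those of any other time and bracketed the 12 h arrays. Among all tested probe sets ranked by their rise over 0 h, 1424638_at stood at rank 7 at 6 h, 1 at 12 h and 4 at 24 h, and 1421679_a_at at ranks 9, 5 and 13.

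Most of the Cdkn1a rise was present at 6 h. By then 1424638_at had covered 87.2% and 1421679_a_at 75.1% of their own 24 h log2 difference, and 93.7% and 98.8% at 12 h. From 6 to 12 h, 1421679_a_at rose by a further 0.67 ± 0.15 (limma adjusted p = 0.023), whereas 1424638_at had a difference of 0.21 ± 0.09 (adjusted p = 0.182). Between 6 and 24 h both rose, by 0.42 ± 0.09 (adjusted p = 0.00719) for 1424638_at and 0.71 ± 0.15 (adjusted p = 0.00589) for 1421679_a_at. From 12 to 24 h the differences were 0.21 ± 0.09 (adjusted p = 0.215) and 0.03 ± 0.15 (adjusted p = 0.929). The 6 to 12 h call ended without 12 h replicate 1 (adjusted p = 0.104) or replicate 2 (0.0696), without a filter (0.051) and without a variance trend (0.0619). Both 6 to 24 h calls ended without 24 h replicate 1 (adjusted p = 0.0637 and 0.0713).

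Cdkn1b, whose product p27 holds cells in quiescence, was lowest at 6 h and highest at 24 h on both of its probe sets. Probe set 1434045_at read 696.9 and 714.4 units at 0 h, 647.7 and 671.6 at 6 h, 758.7 and 887 at 12 h, and 936.2 and 946.5 at 24 h. No 2 times overlapped, and the 12 h arrays were the widest apart. It rose by 0.40 ± 0.11 over 0 h at 24 h (1.32-fold, limma adjusted p = 0.0162) and by 0.50 ± 0.11 over 6 h (adjusted p = 0.0074), while the differences at 6 and 12 h from 0 h were -0.09 ± 0.11 and 0.21 ± 0.11 (adjusted p = 0.60 and 0.193). The 24 h call against 0 h ended with arrays centred on their medians (adjusted p = 0.0556) and without any 1 of the 4 arrays of the 2 times, 0 h replicate 1 (0.1001), 0 h replicate 2 (0.0737), 24 h replicate 1 (0.0775) or 24 h replicate 2 (0.0899). That against 6 h ended without 24 h replicate 1 (0.0501) or replicate 2 (0.0568).

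The dimmer Cdkn1b probe set was 1419497_at. It read 207.4 and 228.6 units at 0 h, 112.6 and 161.8 at 6 h, 180.2 and 141.6 at 12 h, and 257.8 and 296.5 at 24 h, so the 6 and 12 h arrays overlapped and both lay under 0 h. Its difference from 0 h was -0.61 ± 0.20 at 6 h (limma adjusted p = 0.0529), -0.40 ± 0.20 at 12 h (0.165) and 0.32 ± 0.20 at 24 h (0.249). From 6 to 24 h it rose by 0.92 ± 0.20, or 1.9-fold (adjusted p = 0.00569; 0.0601 without 24 h replicate 2). The difference from 12 to 24 h, 0.72 ± 0.20, missed the threshold at adjusted p = 0.0519, and passed without 6 h replicate 1 (0.0209) or 6 h replicate 2 (0.0226). The 6 h difference from 0 h passed as a fall with arrays centred on their medians (-0.63, adjusted p = 0.0471). It also passed when 6 h replicate 2 (0.0178) or 12 h replicate 2 (0.0488) was dropped. Both probe sets of Cdkn1b thus passed for the rise from 6 to 24 h, and 1 of the 2 for the rise from 0 to 24 h.

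Cdkn1c encodes p57, an imprinted inhibitor best known from embryonic tissues and differentiating cells. Its 1 probe set, 1417649_at, was the dimmest of the 9. It read 9.1 and 4.6 units at 0 h, 62.4 and 55.3 at 6 h, 103.8 and 46.1 at 12 h, and 65.1 and 56.5 at 24 h. Both 0 h arrays were below the offset of 21.9 units, all 6 later arrays were above it, and the later times overlapped each other. Every reading was below the array medians of 138 to 154 units, and the probe set did not reach the filter on dim signals (its mean log2 value was 6.02, against a limit of 6.58), so it was not among those tested. With no filter the log2 differences from 0 h were 1.49 ± 0.33 at 6 h, 1.69 ± 0.33 at 12 h and 1.53 ± 0.33 at 24 h (limma adjusted p = 0.0289, 0.0121 and 0.0131). These sizes depended on the offset: the 6 h difference was 2.99 with an offset of 1 unit and 0.57 with 100 units (adjusted p = 0.012 and 0.0643). Without 0 h replicate 1 the adjusted p-values were 0.125, 0.0639 and 0.0588 at 6, 12 and 24 h, and without 0 h replicate 2 they were 0.171, 0.0925 and 0.0912. Of the arrays after 0 h, the one whose absence ended each call with the highest adjusted p was 6 h replicate 1 (0.112) at 6 h, 12 h replicate 1 (0.059) at 12 h and 24 h replicate 1 (0.0859) at 24 h.

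**Figure D2:**
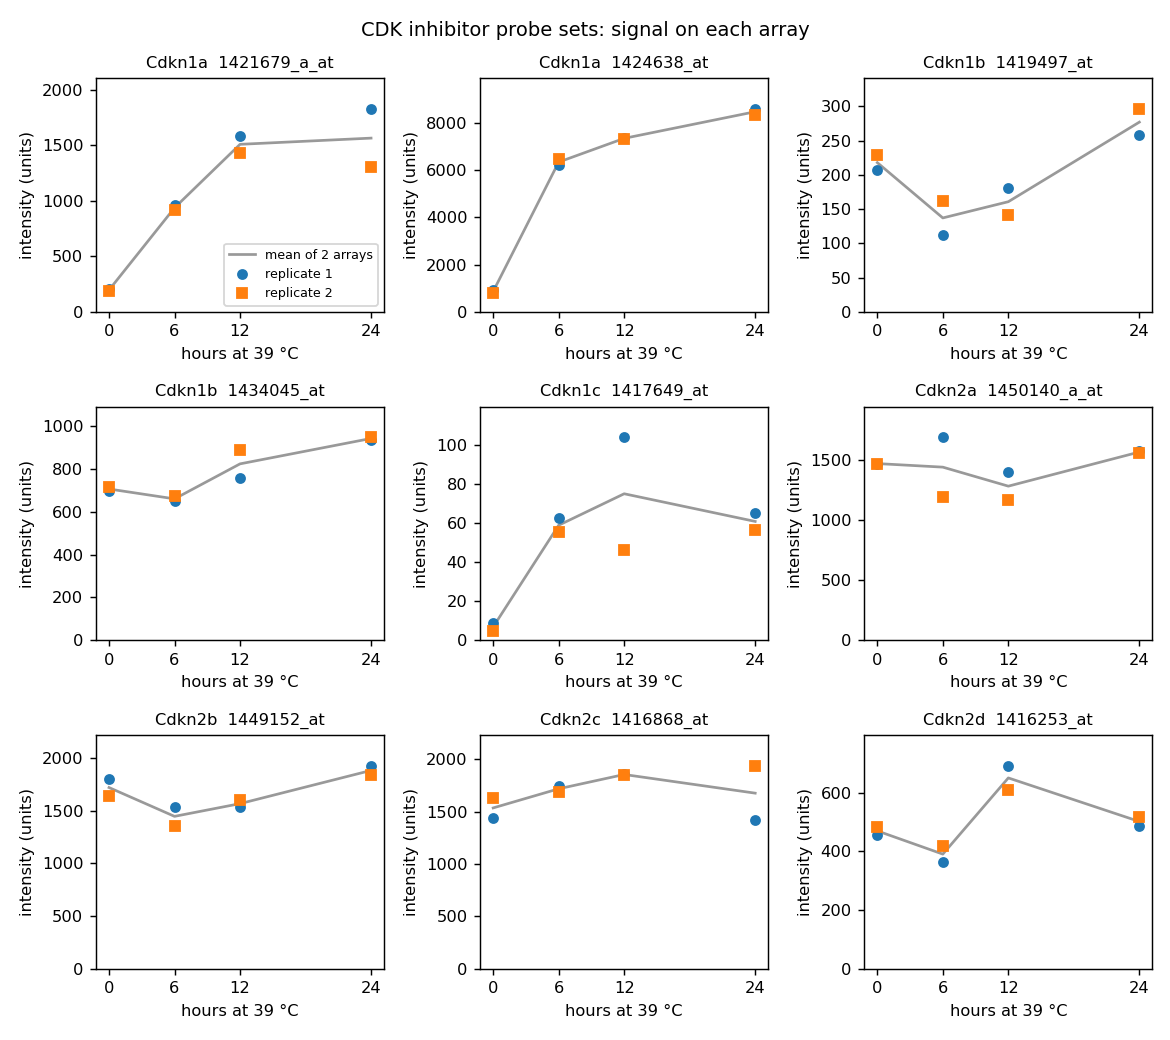
Intensity (units, linear axes from 0) of the 9 CDK inhibitor probe sets against hours at 39 °C. Circles are replicate 1, squares replicate 2 and the line joins the means of 2 arrays; the 2 Cdkn1a panels climb from 0 h, Cdkn2d peaks at 12 h (691.3 and 608.8 units), and Cdkn1c stays under 104 units throughout.

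Among the INK4 genes, Cdkn2d was the one that rose above 0 h. Cdkn2d encodes p19INK4d, which inhibits CDK4 and CDK6. Probe set 1416253_at read 457.3 and 481.9 units at 0 h, 364 and 417.1 at 6 h, 691.3 and 608.8 at 12 h, and 486.1 and 517.1 at 24 h. The 12 h arrays stood above all others and the 6 h arrays below all others, with no overlap between any 2 times. The signal rose by 0.45 ± 0.13 over 0 h at 12 h (1.36-fold, limma adjusted p = 0.0234) and by 0.70 ± 0.13 over 6 h (1.63-fold, adjusted p = 0.00826). At 24 h it was 0.09 ± 0.13 from 0 h (adjusted p = 0.621) and -0.36 ± 0.13 from 12 h (adjusted p = 0.116), so the return after 12 h did not pass. The 12 h call against 0 h ended with median-centred arrays (0.0504) and without 0 h replicate 1 (0.143), 0 h replicate 2 (0.0882) or 12 h replicate 1 (0.135). The call against 6 h ended without 12 h replicate 1 (0.0559) and with only those 2 times in the fit (0.0527).

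Cdkn2b, the gene of p15INK4b and a known target of TGF-beta signalling, lies next to Cdkn2a on chromosome 4, with 1 annotated gene, the long non-coding RNA Gm12610, between them. Probe set 1449152_at read 1798 and 1642 units at 0 h, 1540 and 1353 at 6 h, 1532 and 1603 at 12 h, and 1926 and 1839 at 24 h. The 6 and 12 h arrays overlapped and lay below 0 h, and the 24 h arrays lay above it. None of its differences from 0 h passed: they were -0.25 ± 0.10 at 6 h, -0.13 ± 0.10 at 12 h and 0.13 ± 0.10 at 24 h (limma adjusted p = 0.12, 0.387 and 0.374). It rose from 6 to 24 h by 0.38 ± 0.10 (1.3-fold, adjusted p = 0.0209). This call was lost in 6 of 17 settings, among them without 6 h replicate 2 (0.0655), 24 h replicate 1 (0.134) or 24 h replicate 2 (0.0784).

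Cdkn2a encodes both p16INK4a and, in another reading frame, p19ARF, which shields p53 from Mdm2. Probe set 1450140_a_at read 1473 on both arrays at 0 h, 1692 and 1195 at 6 h, 1400 and 1170 at 12 h, and 1574 and 1565 at 24 h. The 6 h arrays spanned all other times but 12 h replicate 2. The differences from 0 h were -0.05 ± 0.15, -0.20 ± 0.15 and 0.09 ± 0.15 at 6, 12 and 24 h (limma adjusted p = 0.853, 0.358 and 0.685). The 95% interval of the 24 h difference ran from -0.24 to 0.42, so shifts inside it were not resolved with 2 arrays per time. The signal was not split between its p16INK4a and p19ARF transcripts here. Without 6 h replicate 1 the difference from 6 to 24 h, 0.14 in the full fit, was 0.39 and passed (adjusted p = 0.0447), as did the test over the 4 times (0.0478).

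Cdkn2c, the gene of p18INK4c, read 1439 and 1635 units at 0 h on 1416868_at, 1749 and 1690 at 6 h, 1857 and 1856 at 12 h, and 1417 and 1939 at 24 h. The 24 h arrays were the widest apart and spanned every array of the other times. Its differences from 0 h were 0.16 ± 0.14, 0.27 ± 0.14 and 0.11 ± 0.14 at 6, 12 and 24 h (limma adjusted p = 0.445, 0.172 and 0.577), and the 95% interval at 24 h ran from -0.19 to 0.41.

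Over the whole family, 6 of the 8 tested probe sets changed across the 4 times in the moderated F-test of limma, where 40.1% of all 13576 tested probe sets did so. They were both probe sets of Cdkn1a (adjusted p = 1.19e-08 and 1.12e-06), both of Cdkn1b (0.0116 and 0.0149), Cdkn2d (0.00651) and Cdkn2b (0.0488), while Cdkn2a and Cdkn2c had adjusted p = 0.398 and 0.385. The count was 3 without 24 h replicate 2, and the Cdkn2b call was lost in 11 of 16 settings, with adjusted p up to 0.186. The 9 probe sets are not independent, since the pairs for Cdkn1a and Cdkn1b read the same genes.

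Against 0 h, 2 of 8 tested probe sets rose at 6 h, both of Cdkn1a, and 0 fell (2 fell at unadjusted p under 0.05), where 8.65% of all tested probe sets rose and 9.33% fell. At 12 h, 3 rose, with Cdkn2d added, and 0 fell (0 at unadjusted p under 0.05), against 12.1% and 11.9% of all. At 24 h, 3 rose, with Cdkn1b in place of Cdkn2d, and 0 fell (0 unadjusted), against 17.1% and 15.8%. These comparisons share the 0 h arrays. The median log2 difference of the 8 was -0.07 at 6 h, 0.24 at 12 h and 0.22 at 24 h, and that of all tested probe sets was 0.0026, 0.0053 and 0.0155.

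**Figure D3:**
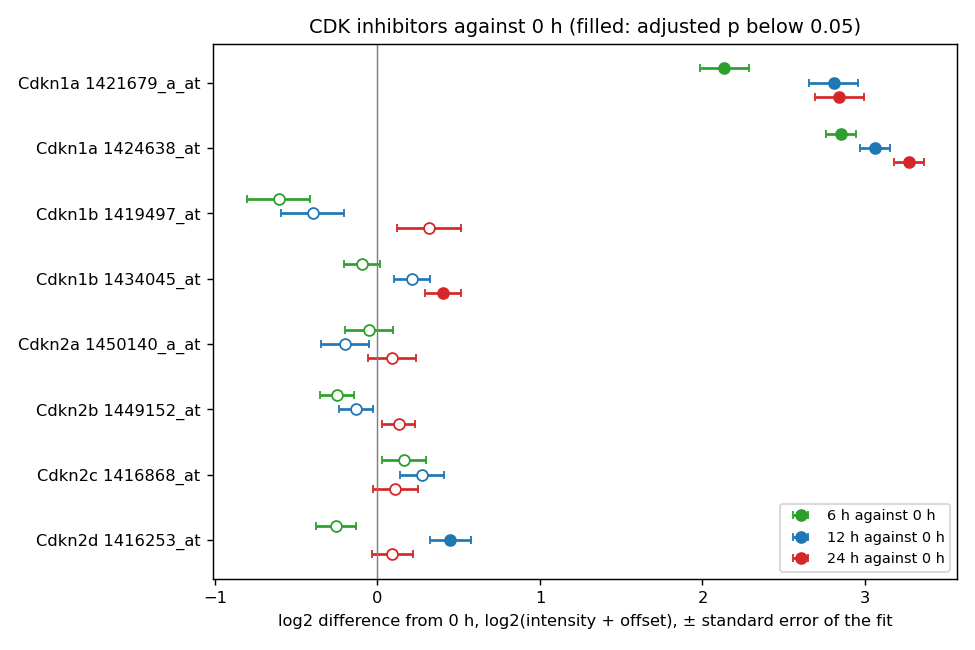
Log2 difference from 0 h on the scale of log2(intensity + offset) for the 8 tested probe sets at 6, 12 and 24 h, with standard errors of the fit as bars and filled points for adjusted p below 0.05. The Cdkn1a points lie between 2.13 and 3.27, and all other points lie between -0.61 and 0.45.

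Between later times, the step from 6 to 12 h brought 2 rises among the 8 (1421679_a_at of Cdkn1a, and Cdkn2d) and 0 falls (0 unadjusted), against 4.61% rises and 3.71% falls over all tested probe sets; without 12 h replicate 1 it brought 0, and without 12 h replicate 2, 1. From 6 to 24 h, 5 rose and 0 fell (0 unadjusted), against 13.6% and 11.3%: both probe sets of Cdkn1a, both of Cdkn1b, and Cdkn2b. That number was 1 without 24 h replicate 1 and 2 without 24 h replicate 2. From 12 to 24 h, 0 rose and 0 fell in limma (3 and 1 at unadjusted p under 0.05), against 3.77% and 3.11%. The 1 call made there without 6 h replicate 1 or without 6 h replicate 2 was 1419497_at of Cdkn1b.

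None of the 3 tested kinase genes that these inhibitors bind passed against 0 h, while several cyclin genes did. Of 12 listed CDK and cyclin genes, 11 had a single-symbol probe set and 10 were tested. At 6 h, 3 rose, 1 fell and 6 did not pass. At 12 h, 2 rose, 0 fell (0 unadjusted) and 8 did not pass, and at 24 h, 2 rose, 1 fell and 7 did not pass. Their median log2 difference was 0.20, 0.14 and -0.09, where the median of all 7707 tested genes was 0.0092, 0.0186 and 0.0178. Of all tested probe sets, 8.65%, 12.1% and 17.1% rose and 9.33%, 11.9% and 15.8% fell at 6, 12 and 24 h. Cdk2, the main S-phase partner of p21 and p27, was at 0.03 ± 0.13, -0.06 ± 0.13 and 0.05 ± 0.13 from 0 h at 6, 12 and 24 h. Cdk4, the target of the INK4 proteins, was at 0.04 ± 0.12, 0.04 ± 0.12 and -0.14 ± 0.12. The mitotic kinase gene Cdk1 was at 0.17 ± 0.10, 0.27 ± 0.10 and -0.19 ± 0.10. The lowest limma adjusted p-value of these 3 genes against 0 h was 0.08, for Cdk1 at 12 h, and Cdk1 passed there without either 6 h array. Cdk1 also passed at 6 h without 6 h replicate 2 (0.0405). With only the 2 times compared in the fit it passed upwards at 12 h (0.0195) and downwards at 24 h (-0.19, adjusted p = 0.0473). Cdk6 did not reach the filter on dim signals, with means between 36.7 and 74.6 units. Between later times, Cdk1 was called lower at 24 h than at 6 h (-0.36 ± 0.10, limma adjusted p = 0.0243) and at 12 h (-0.46 ± 0.10, 0.0235). From 6 to 12 h, 1 of the 10 genes rose and 1 fell. From 6 to 24 h, 1 rose and 4 fell, and from 12 to 24 h, 0 rose (0 unadjusted) and 3 fell. Of all tested probe sets, 4.61%, 13.6% and 3.77% rose and 3.71%, 11.3% and 3.11% fell. These later steps were not refitted in other settings.

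All 3 D-type cyclin genes rose at 6 h, and Ccnd1 stayed up. Ccnd1, the cyclin that activates CDK4 and CDK6, read 2925 and 2931 units at 0 h, 5247 and 4353 at 6 h, 3865 and 4385 at 12 h and 4194 and 4055 at 24 h, and every later array was above 0 h. It rose by 0.70 ± 0.11, 0.49 ± 0.11 and 0.49 ± 0.11 at 6, 12 and 24 h (limma adjusted p = 0.00163, 0.00792 and 0.00528), and its 3 probe sets were all called at each time. The 12 h call ended without 0 h replicate 1 (0.0622), 0 h replicate 2 (0.0595) or 12 h replicate 2 (0.068). Ccnd2 rose by 0.37 ± 0.09 at 6 h (adjusted p = 0.0192, and 0.115 and 0.132 without either 0 h array) and was at -0.22 ± 0.09 at 24 h (0.0941). Ccnd3 rose by 0.57 ± 0.15 at 6 h (0.0254), a call that ended without 0 h replicate 1 (0.08), 0 h replicate 2 (0.17) or 6 h replicate 1 (0.127). Across the 7 Ccnd2 probe sets tested, 4 were called higher at 6 h and 3 lower at 24 h. From 6 to 24 h all 7 were called lower, and Ccnd3 fell by 0.61 (SE 0.15, limma adjusted p = 0.0146).

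The cyclins of later phases differed. Ccne2, which activates CDK2 at the start of S phase, read 419.4 and 372.1 units at 0 h, 452 and 851.5 at 6 h, 720.2 and 846.5 at 12 h and 659.4 and 865.9 at 24 h. It rose by 0.95 ± 0.24 at 12 h and 0.90 ± 0.24 at 24 h (limma adjusted p = 0.0141 and 0.0129). The 12 h call ended without 0 h replicate 1 (0.0573), 0 h replicate 2 (0.0965) or 12 h replicate 2 (0.0876), and the 24 h call without 0 h replicate 2 (0.0866) or 24 h replicate 2 (0.114). Ccne1 was at -0.38 ± 0.13 at 6 h (0.0691), 0.04 ± 0.13 at 12 h (0.878) and 0.06 ± 0.13 at 24 h (0.78). Ccnb2, a mitotic cyclin, fell by 0.46 on the log2 scale at 6 h (SE 0.10, adjusted p = 0.00967, and 0.0759 without either 0 h array). It was at 0.09 ± 0.10 at 12 h and -0.28 ± 0.10 at 24 h (adjusted p = 0.0501). Ccna2, the S and G2 cyclin, fell by 0.40 at 24 h (SE 0.13, limma adjusted p = 0.0365). This call ended when any 1 of the 0 h or 24 h arrays was left out. The other tested Ccna2 probe set was at -0.52 and was also called lower, but its call was not refitted in the other settings. Both Ccna2 probe sets were called lower at 24 h than at 6 h and at 12 h (-0.63 ± 0.13 and -0.60 ± 0.13 on the brightest).

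**Figure D4:**
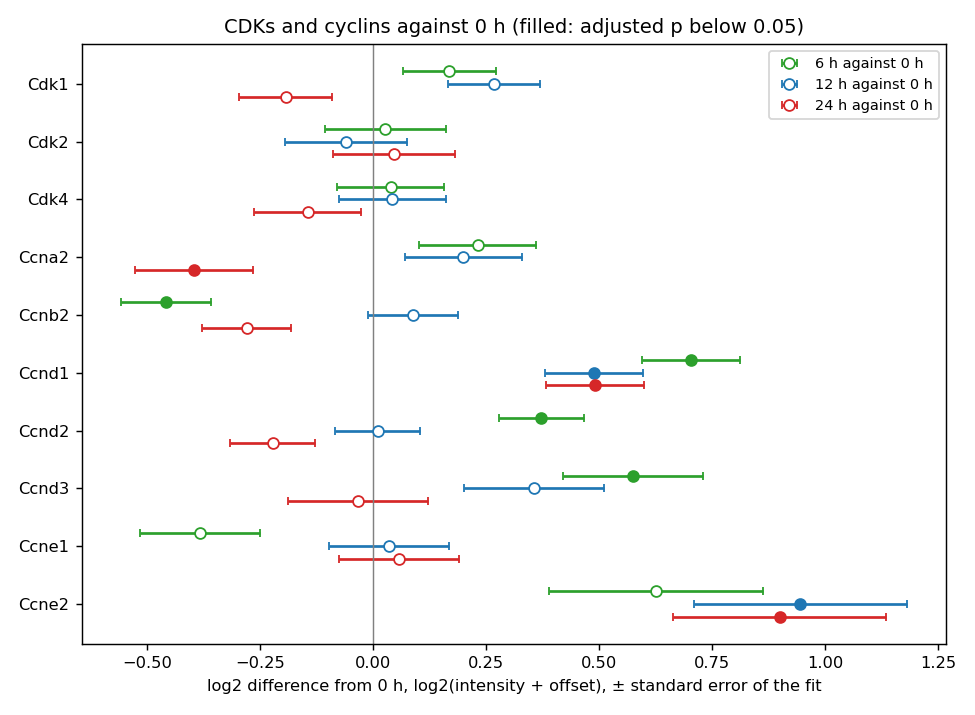
Log2 difference from 0 h, on the scale of log2(intensity + offset), for the 10 tested CDK and cyclin genes at 6, 12 and 24 h, with standard errors of the fit; filled points had an adjusted p below 0.05. Ccnd1 is filled at all 3 times, and Cdk1, Cdk2 and Cdk4 have no filled point.

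Downstream of the kinases, the retinoblastoma gene Rb1 itself rose. It read 107.3 and 89.8 units at 0 h, 86.6 and 130.9 at 6 h, 204.4 and 221.2 at 12 h, and 419.5 and 468.8 at 24 h, with 12 h and 24 h clear of every earlier array. The rise was 0.97 ± 0.20 at 12 h and 1.95 ± 0.20 at 24 h (limma adjusted p = 0.00484 and 3.29e-05). Taking each gene by its brightest probe set, it was the 1 gene called at 24 h among 10 tested genes of the pocket protein and E2F list (13 listed), and 0 fell (0 unadjusted). At 6 h, 0 rose and 0 fell (1 and 0 unadjusted), and at 12 h, 2 rose, Rb1 and the E2F repressor gene E2f8 (0.45 ± 0.15, limma adjusted p = 0.0459), and 0 fell (0 unadjusted). The E2f8 call ended without 0 h replicate 1 (0.243), 0 h replicate 2 (0.103), 12 h replicate 2 (0.275), 24 h replicate 1 (0.071) or 24 h replicate 2 (0.0707). The same E2f8 call was also lost with median-centred arrays (limma adjusted p = 0.0651), no filter (0.0895) and no variance trend (0.0555). The medians of that list were 0.11, 0.17 and 0.09. The shares of all tested probe sets at 6, 12 and 24 h were 8.65%, 12.1% and 17.1% higher and 9.33%, 11.9% and 15.8% lower.

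The 2 probe sets of Rbl1, the gene of the RB relative p107, did not run together. The dimmer, 1425166_at, read 217.7 and 183.6 units at 0 h, 68.7 and 72.7 at 6 h, 60.7 and 85.2 at 12 h, and 78.2 and 90.2 at 24 h, every later array lying below 0 h. It fell by 1.26, 1.24 and 1.07 on the log2 scale (SE 0.23, limma adjusted p = 0.0038, 0.00269 and 0.00421; without 0 h replicate 1, 0.0548 at 6 h and 0.0536 at 24 h). The brighter, 1424156_at, was at 0.23 ± 0.11, 0.18 ± 0.11 and 0.20 ± 0.11 (0.173, 0.283 and 0.21). For Rbl2, the gene of p130, the dimmer probe set 1418146_a_at rose by 0.58 ± 0.15 at 24 h (0.0126), a call that ended when 0 h replicate 1 (0.0714), 0 h replicate 2 (0.0638) or 24 h replicate 1 (0.123) was dropped. The brighter one was at 0.31 ± 0.14 (0.115).

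Of 19 tested proliferation genes known to be repressed through RB, 2 rose and 2 fell at 6 h, and 9 rose and 0 fell at 12 h (1 unadjusted). At 24 h, 8 rose and 4 fell (list medians 0.15, 0.30 and 0.0097). For this list and the next, the shares of all tested probe sets were 8.65%, 12.1% and 17.1% higher and 9.33%, 11.9% and 15.8% lower. The replication genes Cdc6 and Mcm6 were higher at 24 h, by 0.89 ± 0.13 and 0.67 ± 0.09 (limma adjusted p = 0.000448 and 0.000274). The mitotic kinase gene Plk1 (-0.82 ± 0.15) and the centromere histone gene Cenpa (-0.78 ± 0.13) were lower (0.00139 and 0.00121). Among 9 genes that phosphorylate or activate CDKs, 1 rose and 2 fell at 24 h. Wee1, an inhibitory kinase of Cdk1, was at 0.43 ± 0.13 (0.0288), and the phosphatase gene Cdc25c and the CDK-activating kinase gene Cdk7 were at -0.73 ± 0.24 and -0.41 ± 0.12 (0.0358 and 0.0246). Each of these 3 calls was lost when 0 h replicate 1 (0.107, 0.0819 and 0.179), 0 h replicate 2 (0.13, 0.199 and 0.0572) or 24 h replicate 2 (0.129, 0.21 and 0.187) was dropped. Dropping 24 h replicate 1 ended those of Wee1 and Cdc25c (0.106 and 0.0617). That list had 0 rises (0 unadjusted) and 1 fall at 6 h, and 0 and 0 at 12 h (2 and 1 unadjusted). The other tested probe sets of Cdk7 and Wee1 were at 0.07 and 0.37 at 24 h, and neither was called.

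Most listed p53 targets other than Cdkn1a rose at every time. Of 18 tested, 12 rose at 6 h, 14 at 12 h and 15 at 24 h, where 8.65%, 12.1% and 17.1% of all tested probe sets rose. The number that fell was 0 at each time (0 unadjusted), and 6, 4 and 3 did not pass. The list medians were 1.07, 1.24 and 1.86. This list was chosen with earlier results of these data known, so its direction is no independent evidence. Trp53inp1, a p53-induced nuclear protein gene, and Ddit4, an mTORC1 inhibitor gene, had the largest rises in it at 24 h, 3.63 ± 0.10 and 2.97 ± 0.12 (limma adjusted p = 3.21e-09 and 7.30e-08). By distance between profiles over the 8 arrays (root mean square difference of log2 values, each gene centred on its own mean), the genes closest to 1424638_at of Cdkn1a were Ccng1 (0.31), Notch1 (0.36) and Mdm2 (0.36), against a spread of 1.33 for Cdkn1a itself. Ccng1 encodes cyclin G1, Notch1 a cell surface receptor of contact signalling and Mdm2 the ubiquitin ligase of p53. Closest to 1434045_at of Cdkn1b were Vcp, Gpbp1l1 and Atp6v1e1 (0.0511, 0.0511 and 0.0514, own spread 0.20). For Cdkn2b they were Echdc2, Limd2 and Ppt1 (0.0554, 0.0573 and 0.0574, own spread 0.15), and for Cdkn2d Tiam2, Spn and Rnf141 (0.0772, 0.0931 and 0.103, own spread 0.26). Each set is the 3 nearest of all tested genes outside the family, so some gene is always nearest. How close such genes lie to other profiles was not measured, and a shared cause was not tested.

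The p53 element found before Cdkn1a was matched in windows of 25 genes, of which 9 had a single-symbol probe set and 5 were tested. By brightest probe set, 4 of the 5 rose at 6 h, 5 at 12 h and 4 at 24 h. Of all tested probe sets, 8.65%, 12.1% and 17.1% rose at these times. On these brightest probe sets, the differences of all 5 were above 0 at each time. Cdkn1a and Ccng1 are among the 5 and were known to rise beforehand, so these counts are no independent evidence. Action of p53 at the elements was not tested. The elements of the 5, each with 1 mismatch to the consensus, follow.
Cdkn1a, chr17:29090928-29090947, + strand: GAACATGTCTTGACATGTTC
Ccng1, chr11:40755462-40755481, - strand: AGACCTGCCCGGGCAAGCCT
Rps27l, chr9:66946296-66946315, + strand: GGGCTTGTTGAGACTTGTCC
Calhm2, chr19:47138451-47138470, - strand: GGGCAAGCCTAGGCAAGATC
Mthfd1, chr12:76255090-76255109, + strand: AAACTTGCTCAGACAGGCCC

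Of these genes, Ccng1, here on its brightest probe set, was 2.67 ± 0.09 above 0 h at 24 h, Calhm2 1.11 ± 0.20 and the ribosomal protein S27-like gene Rps27l 0.73 ± 0.08 (limma adjusted p = 1.24e-08, 0.00179 and 8.02e-05). Mthfd1, a folate enzyme gene, rose by 0.38 at 12 h (limma adjusted p = 0.0224, and 0.0568 with no variance trend) and was at 0.19 at 24 h (0.196). The other 2 probe sets of Mthfd1 were at -0.26 and -0.13 at 6 h, 0.33 and -0.02 at 12 h, and 0.04 and -0.05 at 24 h. Its 12 h call was lost when 0 h replicate 1 (0.157), 0 h replicate 2 (0.0813) or 12 h replicate 2 (0.132) was dropped, and its other 2 probe sets were not called. At 6 h, the Calhm2 call ended without 0 h replicate 1 (0.0927), 0 h replicate 2 (0.0652) or 6 h replicate 2 (0.0527), and that of Rps27l without either 0 h array (0.0643 and 0.0639). The genes were found by their letters after changes of Cdkn1a and Ccng1 were known.

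Among 27 tested transcriptional regulators of the inhibitors (32 listed), 2 rose and 3 fell at 6 h, 4 and 4 at 12 h, and 6 and 5 at 24 h. The medians were 0.12, 0.08 and 0.17. Of all tested probe sets, 8.65%, 12.1% and 17.1% rose and 9.33%, 11.9% and 15.8% fell at these times. The part of these regulators in the inhibitor signals was not tested. Within the list, the largest rises at 24 h were Mdm2 (2.50 ± 0.10, also in the p53 list) and Foxo3 (1.88 ± 0.27), a forkhead factor known to activate Cdkn1b. Foxo3 read 313.8 and 500.9 units at 0 h, 439.2 and 850.9 at 6 h, 1115 and 894.2 at 12 h, and 1438 and 1615 at 24 h, so that 12 and 24 h lay above 0 h on every array (limma adjusted p = 0.00561 and 0.000334). The 12 h call ended without 0 h replicate 1 (0.0677). The largest falls were Id2, an inhibitor of helix-loop-helix factors (-1.10 ± 0.13, adjusted p = 0.000112), and Myc, which represses Cdkn1a and Cdkn2b (-0.75 ± 0.13, adjusted p = 0.00105). Myc read 1278 and 1112 units at 0 h and between 633.9 and 776.5 on all 6 later arrays.

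Listed genes of ubiquitin ligases tied to the turnover of the inhibitors passed at 24 h about as often as probe sets at large (17.1% higher and 15.8% lower). Of 12 tested, each by its brightest probe set, 0 rose and 0 fell at 6 h (2 and 2 unadjusted), 1 and 1 at 12 h, and 2 and 2 at 24 h, with medians of 0.03, 0.05 and -0.02. Skp2, the F-box protein that targets p27, was at -0.02 ± 0.12 at 24 h (limma adjusted p = 0.904). Dtl, the adaptor that targets p21 in S phase, was at 0.50 ± 0.13 and Rnf123, which targets p27 in G1, at 0.54 ± 0.17 (0.0114 and 0.0278). The ubiquitin ligase activators Fzr1 and Cdc20 were at -0.43 ± 0.14 and -0.32 ± 0.09 (0.0365 and 0.0206). All 4 of these calls ended without 0 h replicate 1 (between 0.0798 and 0.167) and without 0 h replicate 2 (between 0.0539 and 0.134). Without 24 h replicate 1 those of Rnf123 (0.146), Dtl (0.0953) and Cdc20 (0.15) ended, and without 24 h replicate 2 those of Rnf123 (0.0977), Fzr1 (0.327) and Cdc20 (0.0575). All 3 Cdc20 probe sets were called lower at 24 h: the other two were at -0.49 ± 0.09 and, for the dimmest, -1.18 ± 0.21 (limma adjusted p = 0.0021 and 0.00146), and neither call ended without any 1 array. Cks1b, the cofactor of Skp2, was not called on its brightest probe set (-0.04 ± 0.09 at 24 h, 0.806). Its other probe set was at -0.35 ± 0.09 at 6 h and -0.41 ± 0.09 at 24 h (limma adjusted p = 0.0191 and 0.00438). The 6 h call ended with no variance trend (0.0603) and without 0 h replicate 1 or 0 h replicate 2. The 24 h call ended without 24 h replicate 2.

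The arrays had medians of 138 to 154 units and correlations over probe sets of log2 values of 0.979 to 0.986 within a time and 0.967 to 0.979 between times. Of 20 listed Sertoli markers, 19 had a probe set and 10 passed the filter. The summed signal of the list was 9029 to 9138 units at 0 h and 11298 to 12249 at 24 h, a sum in which bright genes weigh most. The median log2 difference of the 10 tested markers from 0 h was -0.03 at 6 h, 0.11 at 12 h and 0.08 at 24 h. Clusterin (Clu), Kitl, Gata4 and Krt18 gave high signals. Sox9, Inha and Nr5a1 also passed the filter and were not called against 0 h at any time. In contrast, the Sertoli genes Amh, Cldn11 and Gdnf had means at or below the offset at every time. Fshr and Dmrt1 had means under 50 units. The summed germ cell list was 445 to 576 units at 0 h and 1399 to 1437 at 24 h. That rise came from Kit (252.7 and 348.8 to 1225 and 1222 units), a receptor gene that other cells also express. Kit was the 1 gene of the 8 germ cell markers that passed the filter, and the means of Ddx4, Dazl and Sycp3 stayed under 34 units. Leydig markers summed to 96.8 to 158 units at 0 h and 248 to 326 at 24 h through Star, with means of Cyp11a1 and Cyp17a1 under 14 units. Macrophage and blood markers (5 of 7 measured) summed to 410 to 506 and 522 to 526 units, peritubular myoid markers (5 of 5) to 283 to 347 and 271 to 359, and endothelial markers (4 of 4) to 146 to 148 and 181 to 213 at 0 and 24 h. At 6 h, 2 of 10 tested Sertoli markers rose and 1 fell. Of all tested probe sets, 8.65%, 12.1% and 17.1% rose and 9.33%, 11.9% and 15.8% fell at 6, 12 and 24 h. Wt1, a transcription factor gene of Sertoli cell identity, read 162.1 and 179.8 units at 0 h and 88.7 and 115.9 at 6 h, a fall of 0.64 (SE 0.20, limma adjusted p = 0.0446). At 12 and 24 h it was at -0.43 ± 0.20 and -0.27 ± 0.20 (0.138 and 0.34). The 6 h call was lost with no filter (0.115) and when 0 h replicate 1 (0.14), 0 h replicate 2 (0.216), 6 h replicate 1 (0.187), 24 h replicate 1 (0.0676) or 24 h replicate 2 (0.0692) was dropped. The rises at 6 h were the stem cell factor gene Kitl, 0.70 ± 0.14 (0.00757; 0.0764 without 0 h replicate 1; not called on its other 3 probe sets), and Inhbb, 0.66 ± 0.14 (0.00979; 0.0975 without 0 h replicate 1). At 12 h, 2 rose, Clu and Krt18, and 0 fell (0 unadjusted). Krt18 was at 0.39 ± 0.11 (limma adjusted p = 0.0216). Its call was lost with median-centred arrays (0.0558), with no variance trend (0.0626) and when any 1 of the 0 h or 12 h arrays was left out. At 24 h, 2 of the 10 rose and 0 fell (0 unadjusted): Clu by 1.44 ± 0.15 and the inhibin subunit gene Inhbb by 0.51 ± 0.14 (limma adjusted p = 3.63e-05 and 0.0188). The Inhbb call was lost if 0 h replicate 1 (0.151), 24 h replicate 1 (0.0752) or 24 h replicate 2 (0.106) was left out. Kit rose by 1.96 ± 0.17, Star, of steroid synthesis, by 1.18 ± 0.24, and the macrophage gene Cd68 by 0.59 ± 0.18 (1.36e-05, 0.00327 and 0.0306). The Cd68 call ended without 0 h replicate 1 (0.221), 24 h replicate 1 (0.153) or 24 h replicate 2 (0.0981). The part of these markers in the CDK inhibitor signals was not tested.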

How the data were processed

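Per the labels' protocols, DNase-treated total RNA of 8 TTE3 samples was made into biotin-labelled cRNA, and the samples were grouped by the hours in their titles. The authors deposited linear intensities, 1 per probe set and array, from 0.1 to 38130.2 units. Their trimmed means lie between 500.179 and 500.204 on all arrays, as after scaling to a common level, which would hide changes in total mRNA per cell; the software is not given in the sources used here. Of 22690 probe sets, 64 controls were left out; 20380 had 1 platform symbol, 691 several and 1555 none. Values were taken as log2(intensity + 21.9), the 20th percentile as offset, which understates changes of dim genes. A filter at the 40th percentile of mean log2 values (6.58) kept 13576 for testing.

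All arrays entered 1 linear model with 4 times (limma 3.58.1, R 4.3.3, eBayes with a variance trend, 4 residual and 7.22 prior degrees of freedom), with a moderated F-test and 6 contrasts, 2-sided, Benjamini-Hochberg over all tested probe sets, threshold 0.05. The fit was tested on simulated data. Members are all probe sets with a member's symbol; list genes, each by its brightest probe set, were named as all CDK and cyclin partners and, of other lists, the 2 largest rises and 2 largest falls called at 24 h; E2f8, Rbl1, Rbl2, Skp2, Cks1b, the genes with the p53 element and marker genes at low or high signal were named outside that rule, after their values were seen. Members and lists were chosen with earlier results of these data known. Promoter windows are from RefSeq, GRCm38.p6. Precision is limited by 2 arrays per time. Alternatives were 2 offsets, 2 scalings, 2 filters, no variance trend, a replicate block, fits of 2 times and leaving out each array.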

Additional observations from a re-analysis of the deposited data

How the results depend on the processing

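Of 810 refitted differences of the 8 tested CDK inhibitor probe sets (48 differences, up to 17 settings each), 773 kept their side of the threshold, 26 lost a call, 11 gained one and 0 reversed a called direction; of 1665 for the listed genes that the naming rule gave, 1552 kept it, 84 lost a call, 29 gained one and 0 reversed. The Cdkn1a rises over 0 h were called in all 17 settings at each time, from 2.75 to 2.94, 2.96 to 3.15 and 3.16 to 3.35 for 1424638_at and from 1.81 to 2.25, 2.44 to 2.93 and 2.47 to 3.08 for 1421679_a_at at 6, 12 and 24 h. With all arrays of the times compared, counts of called CDK inhibitor probe sets moved by over 1.5 times from 6 to 12 h (2, but 1 with no filter, 1 with no variance trend and 1 with only those 2 times) and from 12 to 24 h (0, but 1 with an offset of 100 units, 1 with the replicate block and 1 with only those 2 times). Each of the others moved by at most 1: the F-test from 6 to 5 (either other scaling, the stricter filter, no variance trend), 6 h from 2 to 3 (median centring, no filter, the replicate block), 12 and 24 h from 3 to 2 (median centring) or 4 (no filter, with Cdkn1c), and 6 to 24 h from 5 to 4 (median centring, the stricter filter, no variance trend, only those 2 times). With median centring, 1419497_at of Cdkn1b was the added call at 6 h, a fall. Leaving out 1 array gave 3 to 7 for the F-test, 2 to 3 at 6 h, 2 to 3 at 12 h and 2 to 3 at 24 h against 0 h, 0 to 2 from 6 to 12 h, 1 to 6 from 6 to 24 h and 0 to 1 from 12 to 24 h. Fewer arrays entered those fits; the cause of the other shifts was not tested. A fit that leaves out 1 array of a time assumes that the other varies like the rest.

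Over all probe sets, the F-test called 5447 and between 3303 and 6608 without 1 array; over all settings the counts against 0 h ran from 836 to 3005 at 6 h (2441 as reported), 1523 to 4148 at 12 h (3257) and 2595 to 5797 at 24 h (4472), and later ones from 240 to 1552 (1130, 6 to 12 h), 1746 to 3827 (3377, 6 to 24 h) and 84 to 1645 (934, 12 to 24 h). The deviations of same-numbered samples correlated between 0.0496 and 0.18. The labels do not say whether same-numbered samples were handled together, and low correlations of this kind cannot decide it. The replicate block moved the 12 to 24 h count to 1. It also brought Cdkn1b (1419497_at) past the threshold at 6 h (limma adjusted p = 0.05) and from 12 to 24 h (0.0472). The settings for Cdkn1c without the filter, and those for Wt1, Kitl, Krt18, E2f8, Mthfd1, Calhm2, Rps27l and the further probe sets of Rbl1, Rbl2, Cks1b and Cdc20, were chosen after seeing the data. The stricter filter left out 1419497_at. Dim signals, near the offset, limit Cdkn1c and Cdk6.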
